A study of Mus musculus with 139 samples.

Results

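The nuclear genes of respiratory complexes II to V were described in single hair cells of the mouse cochlea. They are the rows of the deposited count table whose gene identifier belongs to a protein-coding gene named Sdha to Sdhd, Cyc1, or with a symbol that begins with Uqcr, Cox4 to Cox8, or Atp5. The rule found 49 of 55335 rows, with 48 symbols, because Atp5o has a second, short gene model that had no read in any of the 6 groups. Complex II has 4 of these genes, complex III has 9, complex IV has 18 and complex V has 18. The name alone brings in Atp5s, a coupling factor that is not part of the enzyme itself, and Cox7a2l, which joins complexes into supercomplexes. Of the 49, 44 reached 5 CPM in at least 1 group (CPM, the unit of level used below, is the count of a gene relative to the scaled total of its library); Cox4i2, Cox7b2, Cox8c, Atp5s and the short Atp5o model did not.

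Each library was 1 cell from the cochlea of mice of postnatal days 14 to 16, and the labels give no genotype, treatment, strain or animal. Outer hair cells (OHCs), which amplify vibration, came from the apex (21 cells), the middle (23) and the base (8). Inner hair cells (IHCs), which signal to the auditory nerve, came from the apex (34), the middle (34) and the base (19). The apex of the cochlear spiral responds to low tones and the base to high tones. Since no animal is named, a group counted as 1 sample, cells were not treated as replicates, and no comparison has a test or a p-value.

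The cell titles carry numbers up to 100 or above 100, whose meaning the labels do not give; these lower and higher numbers hold 81 and 58 cells and are given separately below. Total counts ran from 71027 to 13576942 per cell, and the deepest basal OHC held 30.9% of the counts of its group. A read alone did not mark the type: Otof, an IHC marker, had reads in 17 of 21 apical and 18 of 23 middle OHCs, and Ocm, an OHC marker, in 33 of 34 apical IHCs. By level, the median cell had 36.2, 2.22 and 0 CPM of Otof in apical, middle and basal OHCs and 3961, 2892 and 5944 CPM in the IHC groups. The median cell had 4812, 97.1 and 53.8 CPM of Ocm in apical, middle and basal OHCs and 53.7, 1.07 and 0 CPM in the IHC groups. Slc26a5, the motor protein prestin, reached 10 CPM in only 1 of the 8 basal OHCs. The 6 markers of hair cells in general summed to 3545, 767 and 11.1 CPM in the median apical, middle and basal OHC, and to 3887, 2942 and 1740.0 CPM in the median IHC. In the 2 basal OHCs of higher title numbers Pou4f3, Myo6, Gfi1 and Tmc1 of that list were at 0. The defining markers were thus low or absent in most basal OHCs. They were also low in the 16 lower-numbered middle OHCs, with medians of 27.9 CPM of Ocm, 0 CPM of Slc26a5 and 129.6 CPM over the hair cell list. The higher-numbered middle OHCs had medians of 3401, 193 and 1264 CPM. The part of these low markers in the results on basal and middle OHCs was not tested. Blood and immune markers summed to 18468 CPM in basal OHCs and 3257 CPM in basal IHCs, against 1527 and 389 CPM in the apical groups of the same types. Mesenchyme and bone markers summed to 20316 CPM in basal OHCs and 2217 CPM in basal IHCs, against 1239 and 422 CPM in the apical groups. No pair of cells had identical counts.

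Complexes II to IV carry electrons along the inner mitochondrial membrane. Complex II, succinate dehydrogenase, takes them from the citric acid cycle and pumps no protons, and all of its subunits are nuclear. Complex III passes electrons to cytochrome c, complex IV passes them to oxygen, and both pump protons. Complex V, ATP synthase, lets protons flow back and makes ATP. Hair cells spend ATP on ion transport and synaptic release, and complexes III to V combine nuclear subunits with others encoded by mitochondrial DNA.

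Promoter sequences are shown for Cox6b1, the gene with the clearest regional difference below, and for Cox6a1, a gene of the same complex that holds matches to both of the main motifs searched. They run from 250 bases before to 50 bases after the start of the gene, from RefSeq (GRCm38.p6), 5′ to 3′ on the strand of the gene. Cox6b1 lies at chr7:30626065-30626364 (minus strand) and Cox6a1 at chr5:115348909-115349208 (minus strand). Capitals mark matches to the ETS core CCGGAAG or its reverse complement CTTCCGG and to the NRF1 core.
Cox6b1: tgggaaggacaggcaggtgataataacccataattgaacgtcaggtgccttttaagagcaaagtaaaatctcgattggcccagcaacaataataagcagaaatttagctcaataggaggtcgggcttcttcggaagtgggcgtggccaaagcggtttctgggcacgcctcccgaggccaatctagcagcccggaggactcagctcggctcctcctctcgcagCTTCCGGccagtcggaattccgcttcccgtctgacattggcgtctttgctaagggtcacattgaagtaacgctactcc
Cox6a1: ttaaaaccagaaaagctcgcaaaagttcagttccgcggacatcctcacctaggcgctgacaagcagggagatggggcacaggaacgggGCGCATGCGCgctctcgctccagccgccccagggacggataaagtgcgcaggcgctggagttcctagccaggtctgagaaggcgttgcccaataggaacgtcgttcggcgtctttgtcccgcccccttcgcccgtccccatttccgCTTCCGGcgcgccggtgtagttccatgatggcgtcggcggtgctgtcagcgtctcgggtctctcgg
A promoter was found for 34 of the 48 symbols. The ETS core, searched on both strands, was in 12 of the 34 (35.3%), among them Sdhb, Sdhd, Uqcr11, Uqcrh, Cox8a and Atp5l, against 9.93% of the promoters of 27025 genes. The NRF1 core, which reads the same on both strands, was in 4 (11.8%), namely Uqcrc1, Cox6a1, Atp5g2 and Atp5k, against 1.07%. The YY1 core AAGATGGCG was in 2 (5.88%) against 1.64%, the ERR site TCAAGGTCA in 2 (5.88%) against 0.466%, and TATAAA in 3 (8.82%) against 15.7%. These matches describe letters in the window and are not evidence of binding.

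Summed over all 49 genes, the level was highest in the base in both types of hair cell. It was 3515 CPM in apical, 3387 CPM in middle and 10402 CPM in basal OHCs, and 2328, 2833 and 5816 CPM in apical, middle and basal IHCs. Complex IV made up the largest share of the pooled basal sums. At higher title numbers alone complex V led instead, with 2412 CPM against 1605 CPM of complex IV in basal OHCs and 1849 against 684 CPM in basal IHCs. Pooled, the complex IV genes summed to 1457, 1083 and 5607 CPM in OHCs of the apex, middle and base, and to 709, 898 and 2823 CPM in IHCs of the apex, middle and base. Complex V summed to 1164, 1600 and 3492 CPM in OHCs and to 1012, 1266 and 2015 CPM in IHCs, in the same order of regions. Complex III also had its highest sums in the base, 1220 CPM in OHCs and 682 CPM in IHCs. In each of these 3 complexes 1 gene made up most of the basal sums. Cox6b1 of complex IV was at 4718 CPM in basal OHCs and 2374 CPM in basal IHCs, against 402 and 207 CPM in the apex. Uqcrq of complex III was at 760 and 509 CPM in the 2 basal groups, and Atp5a1 of complex V at 2092 and 1278 CPM. The basal sums thus describe these genes more than the complexes as a whole. Complex II went another way in OHCs, with 375 CPM in the apex, 327 CPM in the middle and 84.0 CPM in the base, while IHCs had 130, 247 and 296 CPM. That OHC order held at higher title numbers, where the base had 122.3 CPM from 2 cells and the apex 536 CPM, but at lower numbers the base had 58.2 CPM and the apex 39.9 CPM. A single basal OHC held 44.003% of the counts of all 49 genes in that group.

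The regional difference lay in the cells with lower title numbers. There the median basal OHC had 7645 CPM over the 49 genes, against 957 CPM in the apex, and the median basal IHC had 6465 CPM, against 511 CPM in the apex. The middle cells of these numbers were lower still, with medians of 361 CPM in OHCs and 185 CPM in IHCs. Among higher title numbers the medians were 3927, 4117 and 4536 CPM in apical, middle and basal OHCs, the last from 2 cells, and 2843, 5328 and 3656 CPM in apical, middle and basal IHCs. Over the 49 genes, the lower-numbered apical and middle cells had the lowest medians of all. The median total of lower-numbered basal IHCs was also the larger, 6688980 counts against 2121050 in lower-numbered apical IHCs, and that of basal OHCs was 4120300 against 1655580. In the lower numbers, basal IHCs carry the numbers 61 to 77 and the apical and middle IHCs 8 to 56, and basal OHCs carry 41 to 52 against 11 to 40 in apical and middle OHCs, so region and whatever the number stands for cannot be told apart in them.

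**Figure D1:**
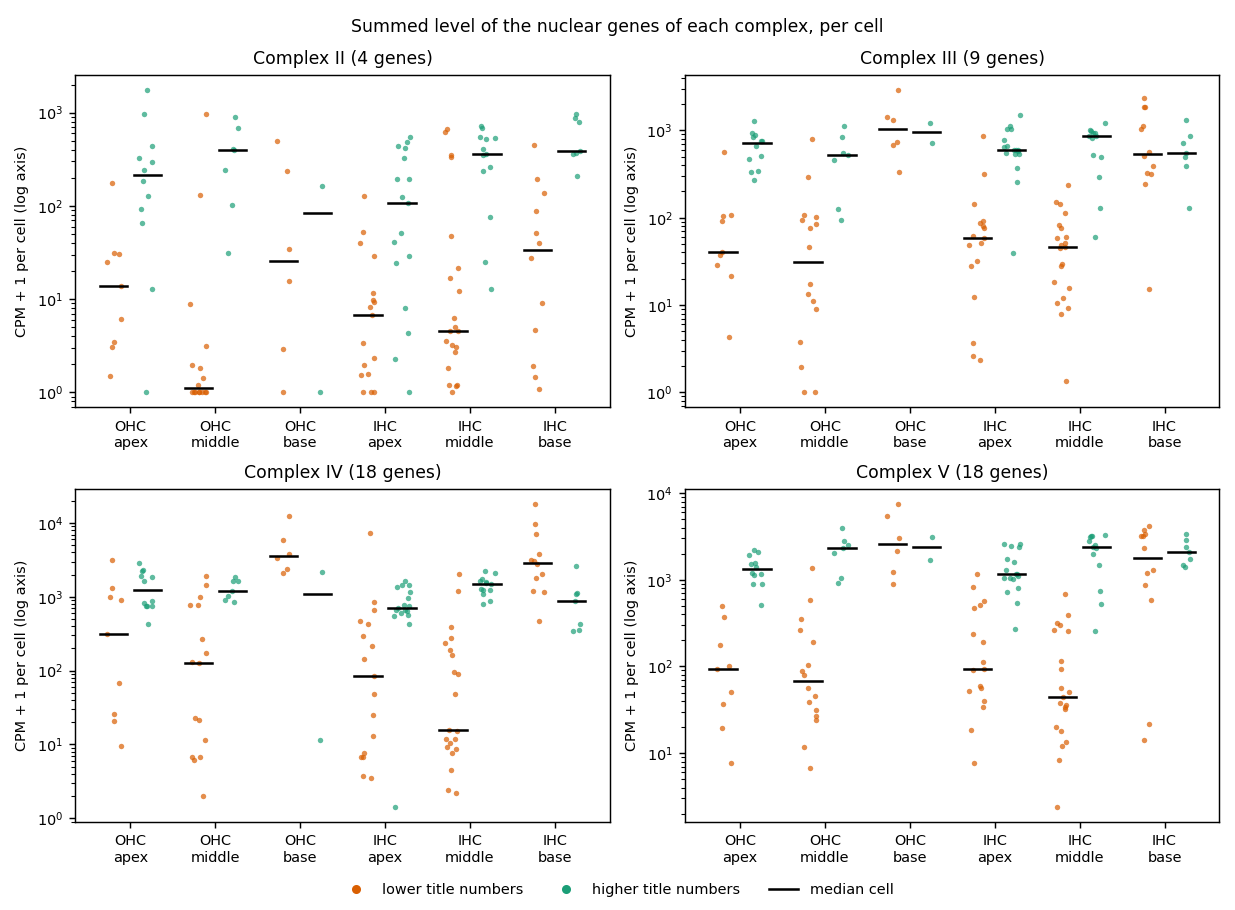
Summed CPM + 1 of the nuclear genes of each complex in every cell (log axis), by group, with points coloured by lower or higher title numbers and black bars at the median cell. For complexes III, IV and V the basal medians stand well above the apical and middle ones among lower title numbers, while the cells of the regions overlap among higher ones.

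Cox6b1, the subunit of complex IV on the side where cytochrome c docks, had the highest level per kb of exon of all 49 genes, with a mean of 1959 CPM per kb over the 6 groups. Among lower title numbers it was present in every basal cell and nearly absent elsewhere. The 6 basal OHCs had 1336 to 12234 CPM (median 2734) and the 12 basal IHCs had 309 to 16179 CPM (median 2480.0). The 63 apical and middle cells had 0 to 221 CPM (median 0.91). All 18 basal cells lay above all 63 others, a separation that 1 of 15004 genes showed (0.00666%), and that gene was Cox6b1. This count ranks a gene picked for its pattern, and describes it without testing it.

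Among higher title numbers, Cox6b1 did not separate the regions. Its 2 basal OHCs had 10.6 and 767 CPM and its 7 basal IHCs had 101.9 to 709 CPM (median 203), and the 49 apical and middle cells had 0 to 1362 CPM (median 382). The difference within the lower numbers therefore includes apical and middle cells with levels far below those of the same groups at higher numbers. Pooled over both, Cox6b1 was at 4718 CPM in basal and 402 CPM in apical OHCs (log2 ratio 3.55) and at 2374 CPM in basal and 207 CPM in apical IHCs (log2 ratio 3.51). The exact Poisson 95% intervals, which cover counting error only, were 4688 to 4748 CPM in basal OHCs and 2366 to 2383 CPM in basal IHCs. By number, the log2 ratio of base over apex was 9.46 at lower and -0.043 at higher numbers in OHCs, and 9.09 and -0.63 in IHCs.

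**Figure D2:**
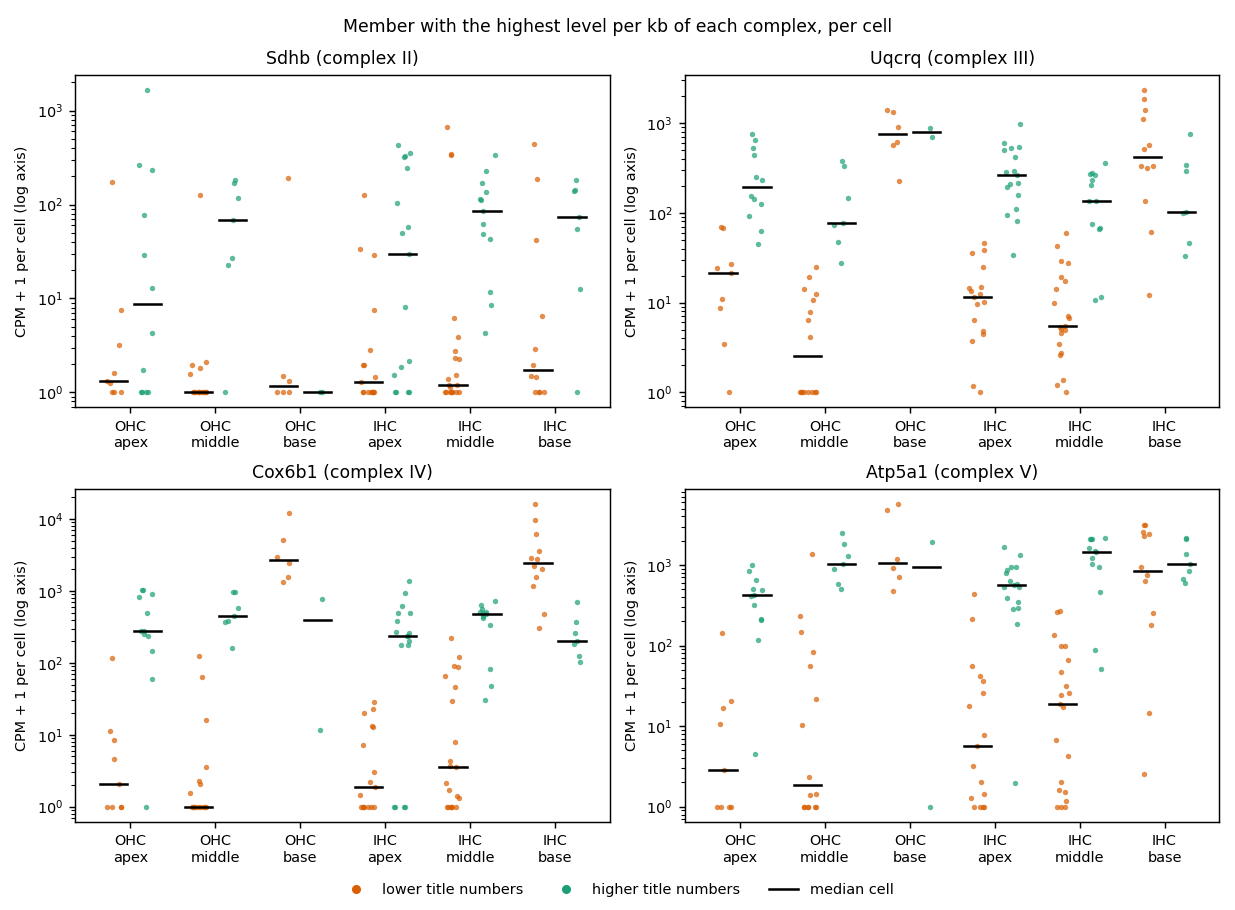
CPM + 1 per cell (log axis) of the gene with the highest level per kb in each complex, by group and title number, with black bars at the median cell. Cox6b1 in lower-numbered cells runs from 309 to 16179 CPM in the base and from 0 to 221 CPM in the apex and middle, while the higher-numbered cells of all regions overlap.

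Markers of other cells moved with region in the same libraries, in directions that differed by list. Pooled neuron and glia markers were higher in base than apex (3667 and 1272 CPM in OHCs, 1563 and 1049 CPM in IHCs). Supporting cell markers were lower in base than apex (61.4 and 104.9 CPM in OHCs, 609.8 and 1635 CPM in IHCs). Stria vascularis markers were lower in basal OHCs (5.68 against 269.6 CPM) but higher in basal IHCs (193.5 against 108.7 CPM). These lists are not part of the marker limit used below. In the lower-numbered basal cells, 15 of 18 had 1000 CPM or more of the 12 blood, immune, mesenchyme and bone markers together, and their Cox6b1 ran from 309 to 16179 CPM. The 3 below that limit, all IHCs, had 2201, 3553 and 9849 CPM of Cox6b1. Among the apical and middle cells, 42 had 1000 CPM or more of these markers, and their Cox6b1 reached at most 221 CPM; in the other 21 it reached at most 115.4 CPM. Without any cell at or above the limit, in either set of numbers, the log2 ratio of base over apex in IHCs was 3.08 (7 basal and 23 apical cells); no basal OHC remained. The limit of 1000 CPM was chosen after seeing the data, and only 3 lower-numbered basal cells lay below it. The part of other cells in the Cox6b1 levels was not tested.

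**Figure D3:**
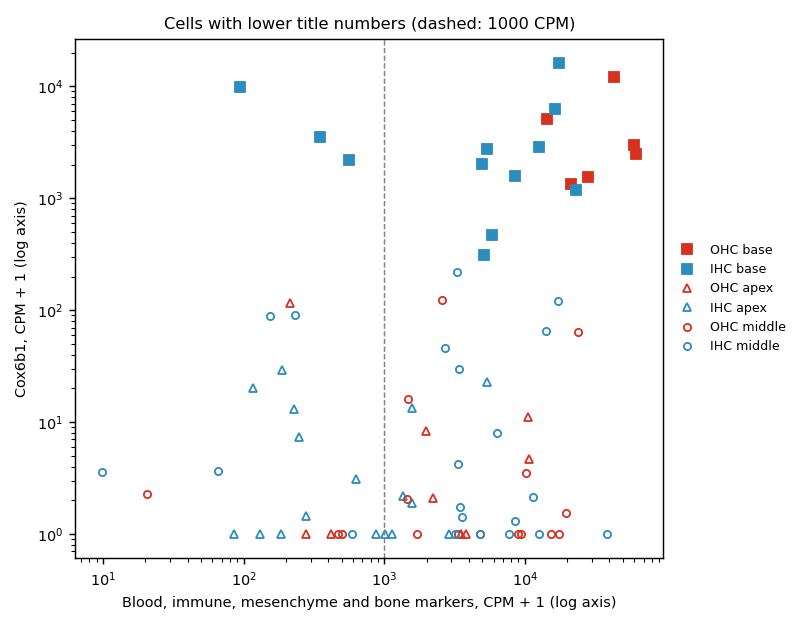
Cox6b1 against the summed blood, immune, mesenchyme and bone markers (both CPM + 1, log axes) in the 81 cells with lower title numbers; filled squares are basal cells, red OHCs and blue IHCs, and the dashed line marks 1000 CPM of markers. All 18 basal cells lie above the other 63 on both sides of the line, the 3 on the left being IHCs with 2201 to 9849 CPM.

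Uqcrq, a small subunit of complex III and the member of that complex with the highest level per kb, followed Cox6b1. Among lower title numbers, its 6 basal OHCs had 222 to 1403 CPM (median 763) and its 12 basal IHCs 10.999 to 2352 CPM (median 420), against 0 to 68.01 CPM (median 6.94) in the 63 apical and middle cells. Of the 18 basal cells 16 lay above all 63 others, which 4 of 15004 genes did for at least 16 cells (0.0267%). The other 3 were Cox6b1, the tubulin gene Tuba1b and Coa3, an assembly factor of complex IV; both of the last were named after their values were seen. At higher numbers Uqcrq had 705 and 869 CPM in the 2 basal OHCs and a median of 100 CPM in basal IHCs, against medians of 191 CPM in apical OHCs and 261 CPM in apical IHCs. The log2 ratio of base over apex in OHCs was 5.65 at lower and 1.18 at higher numbers, and in IHCs it was 5.86 and -0.84. Pooled, it was 2.15 in OHCs and 1.45 in IHCs, and 0.86 in IHCs without the cells of high blood, immune, mesenchyme and bone markers.

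Atp5a1, the alpha subunit in the catalytic head of complex V, also was higher in the base than in the apex. Pooled levels were 2092 CPM in basal and 373 CPM in apical OHCs (log2 ratio 2.48) and 1278 CPM in basal and 430 CPM in apical IHCs (log2 ratio 1.57). Among lower title numbers, the 6 basal OHCs had 471 to 5708 CPM (median 1060) and the 12 basal IHCs 1.56 to 3132 CPM (median 837), against medians of 1.85 CPM in apical OHCs and 4.67 CPM in apical IHCs. The groups overlapped, and 7 of the 18 basal cells lay above all 63 others. At higher numbers the log2 ratio of base over apex stayed positive, 1.41 in OHCs and 0.46 in IHCs, although 1 of the 2 basal OHCs had 0 CPM and the other had 1912 CPM. The middle was not below the base there: the median cell had 956 CPM in basal and 1033 CPM in middle OHCs, and 1020.2 CPM in basal and 1468 CPM in middle IHCs.

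Sdhb, the iron-sulfur subunit of complex II and its highest member per kb, did not share the pattern in OHCs. Pooled levels were 17.3 CPM in basal OHCs and 161 CPM in apical OHCs (log2 ratio -3.15), with a negative ratio at lower (-1.15) and at higher (-7.82) numbers. In basal OHCs 1 cell held 98.8% of the Sdhb counts, and the 2 basal OHCs of the higher numbers had none. In IHCs the pooled levels of 80.0 CPM in the base and 78.3 CPM in the apex joined 2 sets that went opposite ways. At lower numbers basal IHCs had 85.3 CPM and apical IHCs 25.7 CPM (log2 ratio 1.69), with 65.8% of the basal and 81.6% of the apical counts in 1 cell each, and at higher numbers the log2 ratio was -0.63.

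Most other members followed the same direction at lower numbers, at far smaller levels. Of the 44 genes past the filter, 37 (84.1%) had a higher median in the 18 basal cells than in the 63 apical and middle cells. A lower median was found for 1, and 6 (13.6%) had equal medians. Among all 15004 genes 31.7% were higher, 4.81% lower and 63.5% equal. Most genes with unequal medians were thus higher in these basal cells, so this direction was not particular to the 44 genes. At higher numbers 17 were higher and 21 lower, against 19.9% and 21.9% of all genes, with 6 members and 58.2% of all genes equal. Many of these medians were below 1 CPM and close to 0. The medians of basal and of other lower-numbered cells were 0.10 and 0 CPM for Atp5h, 0.09 and 0 CPM for Sdhd, and 0.06 and 0 CPM for Uqcr11. Atp5d was higher, at 2.68 and 0.89 CPM. The larger depth of the lower-numbered basal cells moves with these counts, and its part in them was not tested.

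Over pooled cells, the ratio of base over apex spread widely in both types. In IHCs 10 of the 44 genes were 2-fold or more higher in the base and 12 were 2-fold or more lower, with a median log2 ratio of 0.00, beside 26.5% and 31.5% of all genes and their median of -0.02. In OHCs 13 were higher and 19 lower, with a median of -0.59, beside 17.4% and 47.6% of all genes and a median of -0.72. With RLE size factors in place of TMM the OHC split was 15 higher and 14 lower, and with total counts alone 10 higher and 23 lower. RLE moved the median of all genes there by over 0.1, to -0.38. Shares of all genes past 2-fold are not given with these 2 scalings, so their splits are not read as results on the members. With TMM the shares among the 44 genes were 22.7% higher and 27.3% lower in IHCs and 29.5% higher and 43.2% lower in OHCs. By title number, IHCs had 19 genes higher and 7 lower at lower numbers (all genes 18.9% and 25.8%) and 6 higher and 15 lower at higher numbers (all genes 26.2% and 31.9%). OHCs had 17 higher and 11 lower at lower numbers (all genes 19.3% and 14.7%) and 14 higher and 21 lower at higher numbers (all genes 12.2% and 54.1%).

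**Figure D4:**
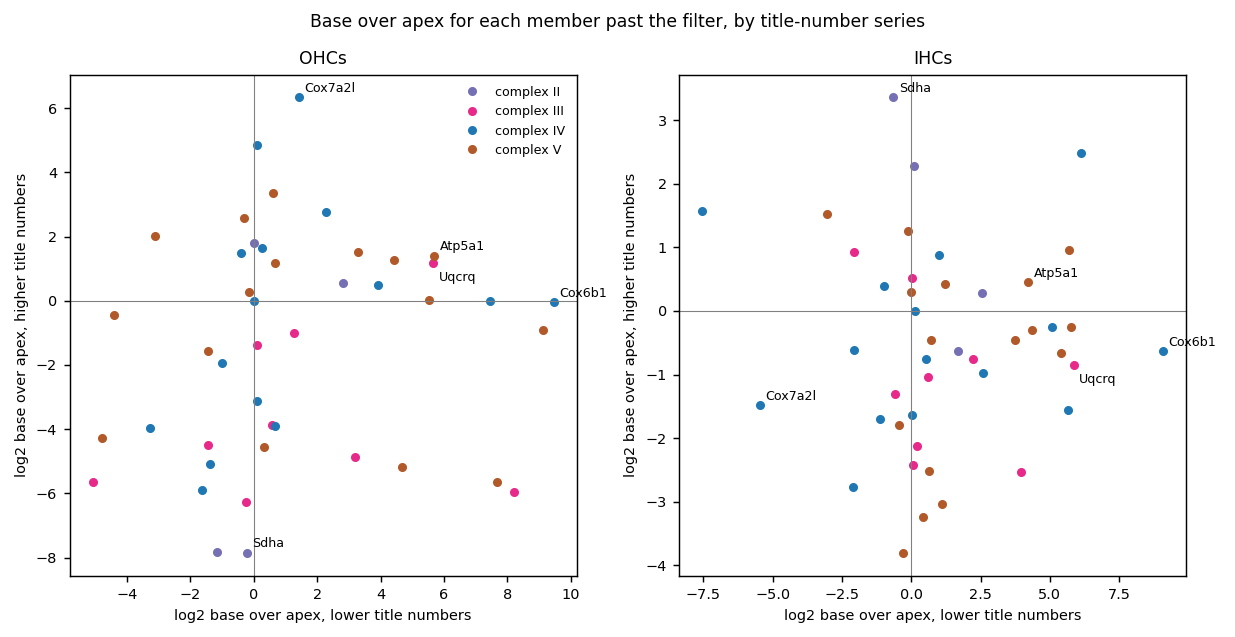
Log2 ratio of base over apex for each of the 44 genes past the filter in pooled lower-numbered cells (x axis) and pooled higher-numbered cells (y axis), in OHCs (left) and IHCs (right), coloured by complex. Cox6b1 lies far to the right at 9.46 in OHCs and 9.09 in IHCs but near 0 on the y axis.

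A base-to-apex difference of 2-fold or more in the pooled cells and in both sets of title numbers was kept by 3 genes in IHCs and 13 in OHCs. Of the 44 genes, 1 was higher (2.27%) and 2 were lower (4.55%) in this way in IHCs, beside 5.07% and 9.18% of all genes. In OHCs 5 were higher (11.4%) and 8 lower (18.2%), beside 3.1% and 9.45% of all genes. The higher numbers hold only 2 basal OHCs, and 16 of the 49 genes had no read in either. Mitochondrially encoded genes held 14.8 and 16.9% of their counts, against a median of 3.84% in higher-numbered apical OHCs. The gene CT010467.1 held a median of 27.5%, against 1.90%. Agreement of both sets in OHCs thus rests on 2 unusual cells. In IHCs Cox7a1 was higher in the base, and Cox5a and Cox7a2l were lower; all 3 were low genes whose median cell was near 0. Cox5a, a core structural subunit of complex IV, was at 0.50 CPM in basal and 8.03 CPM in apical IHCs, and a single cell held most of the counts of each group. In OHCs the genes higher in the base were Uqcrq, Cox6a1, Cox7a2l, Atp5a1 and Atp5k. Cox6a1 was at 95.7 CPM in basal and 26.6 CPM in apical OHCs (log2 ratio 1.81), and Atp5k, subunit e in the membrane part of complex V, at 57.8 and 25.3 CPM (log2 ratio 1.16). For Cox6a1, 1 cell held 87.1% of the counts of lower-numbered basal OHCs, and 1 of 2 cells held 100% of those of the higher-numbered ones. Its log2 ratio was 0.56 with equal weight per cell, below 2-fold, and 2.18 between the median cells. Base over apex, 5 genes were 2-fold or more apart in opposite directions in OHCs and IHCs when pooled (all genes 14.9%), and 1 of them, Cox7a2l, also within each set of title numbers (all genes 0.626%). Of Cox7a2l, 1 higher-numbered basal OHC had 377 CPM and the next basal OHC 10.6 CPM.

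The OHC genes lower in the base in this way were Sdhb, Uqcrb, Uqcrc2, Cox5b, Cox7c, Cox8a, Atp5g2 and Atp5o. Uqcrb, a small subunit of complex III, was at 0.10 CPM in basal and 42.4 CPM in apical OHCs, and Cox8a, a small subunit of complex IV, at 0.50 and 40.95 CPM. Cox5b, a zinc-binding subunit of complex IV, was at 10.5 and 193 CPM (log2 ratio -4.08). For 4 of the 8 the log2 ratio of the median cells had the opposite sign, at 0.84 for Cox5b, 0.22 for Cox8a, 0.60 for Atp5g2 and 1.99 for Atp5o. The 8 basal OHCs include 2 cells of higher title numbers, with 1080 detected genes in the poorer of them.

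Between the types, the counts of genes in each direction varied with the region. In the apex 11 of 44 genes were 2-fold or more higher in OHCs than in IHCs and 7 were lower (median log2 ratio 0.12), beside 28.6% and 32.4% of all genes. In the middle 6 were higher and 2 lower (median 0.32), beside 20.7% and 29.7% of all genes. In the base 12 were higher and 15 lower (median -0.08), beside 16.1% and 48.9% of all genes. Over all genes the apex had a median of -0.02, the middle -0.07 and the base -0.89. With RLE size factors the split was 17 higher and 7 lower in the apex and 21 higher and 12 lower in the base, where the median of all genes was then -0.39. Without cells of high blood, immune, mesenchyme and bone markers, 3 middle OHCs against 11 middle IHCs remained, and 38 genes were lower and 2 higher in those OHCs (median -3.63, all genes -2.24). The median of all genes was thus also far below 0 there. Shares of all genes past 2-fold are not given with RLE or without these cells, so those counts are not read as results on the members.

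By title number, lower ones had 11 genes higher and 12 lower in the apex (all genes 9.62% and 30.3%), 6 higher and 17 lower in the middle (all genes 9.82% and 30.2%), and 10 higher and 11 lower in the base (all genes 14.3% and 23%). Higher ones had 13 higher and 8 lower in the apex (all genes 29.8% and 33.1%), 8 higher and 3 lower in the middle (all genes 22.1% and 26.6%), and 16 higher and 19 lower in the base (all genes 11.9% and 55.9%). The middle thus had most of its differences on the lower side at lower numbers, a lean that all genes shared (9.82% higher and 30.2% lower). At higher numbers more members were on the higher side, while all genes had 22.1% higher and 26.6% lower.

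Of the 44 genes, Atp5j2 (subunit f of the membrane part of complex V) was 2-fold or more higher in OHCs in each of the 3 regions (1.23% of all genes were), and no gene was lower in each (7.28% of all genes were). It was at 59.2 CPM in OHCs and 26.1 CPM in IHCs of the apex, 24.5 and 10.2 CPM in the middle, and 747 and 54.6 CPM in the base. In the base 1 OHC with 2224 CPM held 92% of the group's counts; when the deepest cell of every group was left out, the log2 ratio there was 0.37 instead of 3.75. Among lower title numbers the ratio was negative in apical cells (-0.30) and in middle cells (-1.30). The direction of Atp5j2 therefore did not hold across both sets of numbers.

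The largest difference between the types in the apex, for a gene with reads in more than a single cell of each, was that of Cox7b, a nuclear subunit of complex IV on the X chromosome. It was at 410 CPM in apical OHCs and 24.6 CPM in apical IHCs (log2 ratio 4.004), and the ratio was 6.64 at lower and 3.17 at higher numbers. Its cells were split: 13 of 21 apical OHCs had a read, the median cell was at 0.83 CPM, and the highest at 2224 CPM. The base had 281 CPM in OHCs and 24.99 CPM in IHCs, while the middle had 204 and 119.3 CPM. By number the ratio in the base was 6.26 at lower and -2.29 at higher numbers, so its sign turned, and in the middle it was 7.26 and 0.20.

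**Figure D5:**
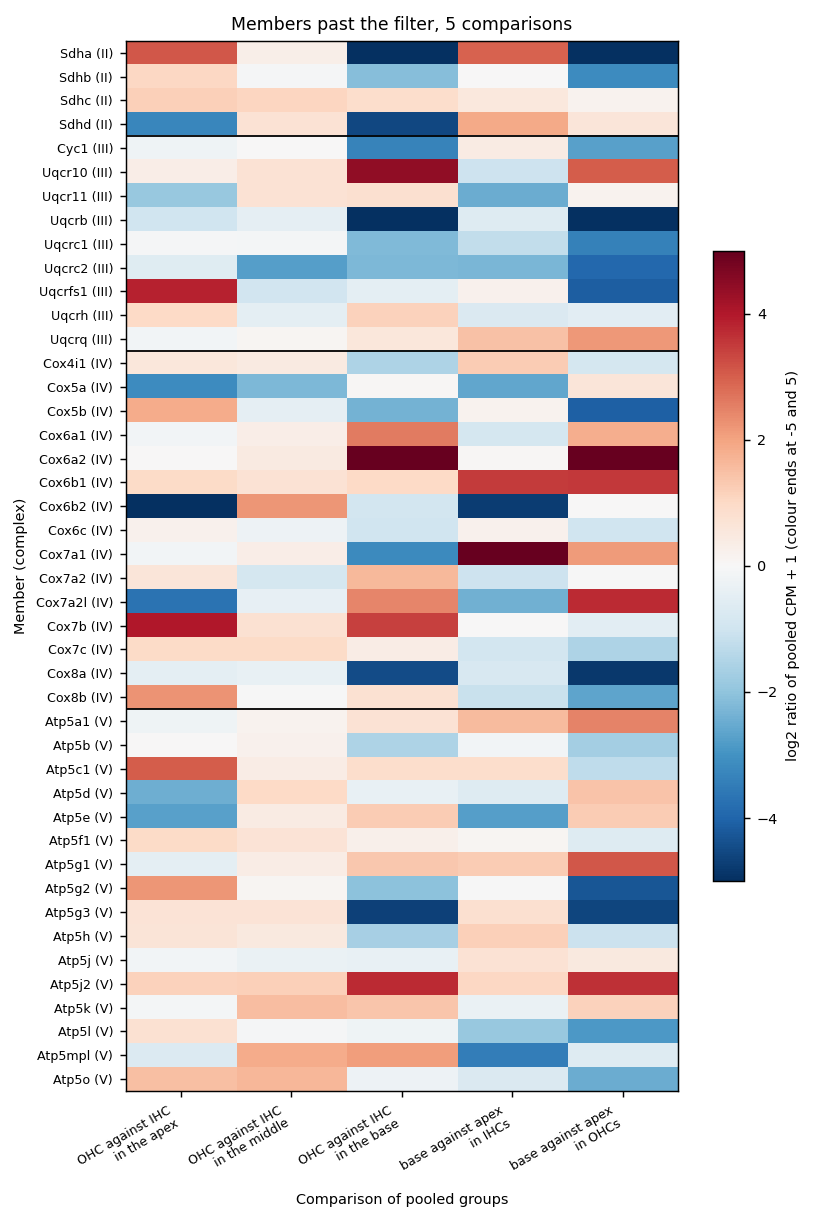
Log2 ratio of pooled CPM + 1 for the 44 genes past the filter (rows, grouped by complex) in the 5 comparisons (columns); red is higher and blue lower in OHCs or in the base, and colour ends at -5 and 5. Red and blue alternate within each complex, and Cox6b1 (3.51 in IHCs and 3.55 in OHCs) is red in both base-to-apex columns.

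The levels of single members that follow are pooled over both sets of title numbers, and several that look even when pooled differ between the sets. In complex II the flavoprotein Sdha, which binds succinate, had the lowest ratio of the base. It was at 0.95 CPM in basal OHCs and 143 CPM in basal IHCs, against 157 CPM in apical OHCs and 17.6 CPM in apical IHCs. In apical OHCs 1 cell held 70.3% of the Sdha counts, and the ratios at lower numbers were -0.05 between the types in the apex and 0.36 in the base. The membrane anchor Sdhc was, pooled, at 57.0, 54.3 and 65.1 CPM in apical, middle and basal OHCs and 24.4, 25.03 and 35.1 CPM in IHCs. At lower numbers alone it was at 5.19, 0.29 and 42.7 CPM in apical, middle and basal OHCs, and the log2 ratio of base over apex was 2.82 in OHCs and 2.56 in IHCs, against 0.54 and 0.28 at higher numbers. The other anchor, Sdhd, ranged from 0.08 CPM in apical OHCs to 75.5 CPM in middle OHCs.

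In complex III both redox subunits were low in basal OHCs when pooled, though for Cyc1 this depended on how the cells were weighted. Cyc1, cytochrome c1, had 25.3, 147 and 3.04 CPM in apical, middle and basal OHCs and 29.5, 146 and 39.8 CPM in IHCs, with both types highest in the middle. A higher-numbered basal OHC had 339 CPM of Cyc1 from 32 reads. With equal weight per cell the log2 ratio of base over apex in OHCs was 1.52 instead of -2.70, and at lower numbers it was 0.10. That of OHCs over IHCs in the base was 0.01 with equal weight instead of -3.34. Uqcrfs1, the Rieske iron-sulfur protein, was at 51.99 CPM in apical OHCs and 2.67 CPM in apical IHCs, with 79.7% of the OHC counts in 1 cell. It was at 2.04 CPM in basal OHCs and at 3.27 CPM in basal IHCs, so low levels were not particular to basal OHCs. The core protein Uqcrc2 had the lowest ratio of the middle, 4.36 CPM in OHCs against 34.8 CPM in IHCs (log2 ratio -2.74). The hinge protein Uqcrh had a read in 7 of 8 basal and 18 of 21 apical OHCs, and stayed between 38.8 and 141 CPM in all groups when pooled, though at lower numbers apical OHCs had 7.99 CPM and at higher numbers basal OHCs had 5.99 CPM. Uqcr10 reached 350 CPM in basal OHCs, all but a trace of it from 1 cell with 1758 CPM.

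In complex V the catalytic beta subunit Atp5b was lowest in basal OHCs, at 161, 160 and 49.5 CPM in apical, middle and basal OHCs and 159, 138 and 146 CPM in IHCs. The log2 ratio of base over apex in OHCs was -1.69, and that of OHCs over IHCs in the base -1.54. By number the base-to-apex ratio was 4.68 at lower and -5.18 at higher numbers in OHCs, and -3.05 and 1.53 in IHCs, so no direction held across both sets. The 3 genes for subunit c of the membrane ring, which encode the same mature protein, differed in pattern. Per kb, Atp5g1 was at 60.9 CPM in basal OHCs, 1 cell holding nearly all of it, and Atp5g2 and Atp5g3 were at 0.27 and 0.53 CPM there; in apical IHCs the levels were 9.79, 3.06 and 14.1 CPM per kb. Atp5h and Atp5f1 of the peripheral stalk stayed between 40.998 and 149.8 CPM in all groups when pooled, though in lower-numbered apical IHCs they were at 0.90 and 1.81 CPM.

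The tissue forms of complex IV subunits, known from heart, skeletal muscle, lung or testis, were at 0 CPM in the median cell of each of the 6 groups, with higher levels in a few cells. Cox6a2, the heart and muscle form, had reads in 2 of 8 basal OHCs, at 766 and 167 CPM, and none in apical OHCs or apical IHCs. Its pooled 210 CPM in basal OHCs was at least 7047-fold above the limit of 3 counts over all apical OHCs. Cox7a1, another muscle form, had its highest basal IHCs at 798 and 264 CPM, with none among the lower-numbered cells of the other IHC groups. It also had reads in 6 of the 7 higher-numbered middle OHCs (median 2.93 CPM) and in 6 of the 13 higher-numbered middle IHCs, up to 20.7 CPM. Cox6b2, the testis form, was at 4426 CPM in 1 apical IHC and 0 in the other 33. Cox8b, a muscle form, was at 105.5 CPM in 1 apical OHC, and Cox4i2, the lung form, reached 47.2 CPM in 1 cell. In apical OHCs, per kb, Cox6a1 was at 37.9 CPM and Cox6a2 at 0 CPM, and Cox4i1 at 62.5 CPM and Cox4i2 at 2.40 CPM. The exons of Cox6a2 overlap those of Itgad on the other strand, and strand was not given for these counts.

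Other genes of the pathway gave a mixed picture, from lists chosen with earlier results known. Of 28 assembly factors of complexes II to V past the filter, 6 were 2-fold or more higher and 10 lower in apical OHCs than in apical IHCs (all genes 28.6% and 32.4%), and 2 were higher and 20 lower in basal OHCs than in basal IHCs (all genes 16.1% and 48.9%; median log2 ratio -2.66 against -0.89). In OHCs, base over apex, 2 assembly factors were higher and 19 lower (all genes 17.4% and 47.6%; median -2.77 against -0.72), Coa3 having the largest positive ratio (4.34) and Cox11 the lowest (-5.66). Of 36 nuclear subunits of complex I, 7 (19.4%) were higher and 20 (55.6%) lower in the base than in the apex of OHCs, shares near those of all genes (17.4% and 47.6%), with a median of -1.92. In IHCs 8 were higher and 12 lower (all genes 26.5% and 31.5%), with a median of -0.21. Of 5 mitochondrially encoded subunits of complexes III to V past the filter, mt-Co1 was 2-fold or more higher in apical OHCs than in apical IHCs (1.11, all genes 28.6%). The same held between middle cells (1.25, all genes 20.7%). Of 13 citric acid cycle genes, 2 were higher and 8 lower in the base of OHCs (all genes 17.4% and 47.6%; median -1.99), and 3 higher and 3 lower in IHCs (all genes 26.5% and 31.5%; median 0.07). Of 13 regulators of mitochondrial gene expression, 7 were higher and 4 lower in the base of IHCs (all genes 26.5% and 31.5%; median 1.41), and 0 and 8 in the base of OHCs (all genes 17.4% and 47.6%; median -2.04). Of 9 genes for cytochrome c and inner membrane carriers, 5 were higher and 3 lower in the base of OHCs (all genes 17.4% and 47.6%; median 1.48).

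Across cells thinned to equal depth, the summed complexes went up and down together more clearly over all cells than within each set of title numbers. Spearman's rho of complexes III and V was 0.74 over 125 cells, 0.52 over the 69 lower-numbered and 0.48 over the 56 higher-numbered cells. That of complexes III and IV was 0.58, 0.56 and 0.17. For the sum of the 49 genes and complex I it was 0.65, 0.36 and 0.76. For the sum of the 49 genes and total counts it was 0.40, 0.31 and 0.04, and the part of depth was not tested. These are descriptions, and since no label names an animal, cells that share one cannot be told apart from cells that do not.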

How the data were processed

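Libraries of single cells were sequenced on an Illumina instrument, per the labels' protocols. What the authors deposited is a table of raw counts, with 1 line a gene and 1 column for each of 139 cells. The submitters' processing notes name Trimmomatic, HISAT2, featureCounts, Subread 1.4.6 and the build GRCm38 (mm10), without roles. Of strand, multi-mapping reads and molecular identifiers the sources used here give nothing. Thus reads of near-identical copies, such as the 8 processed pseudogenes with similar names, and of overlapping genes cannot be separated; 3 of the 49 members share exonic bases with a gene on the same strand and 12 on the other. Identifiers were matched to GENCODE M21 (55154 of 55335 lines; the 181 others held 0.00885% of counts).

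Counts were summed per group, scaled with TMM (edgeR 4.0.16, R 4.3.3) and given as CPM. The value of a cell uses the factor of its group. Pooled values of 1 set of title numbers use TMM factors of that set alone. They are thus not on the scale of the values of single cells or of both sets pooled. In basal OHCs the 49 genes summed to 8227 CPM at lower and 4724 CPM at higher numbers, against 10402 CPM in both together. Differences are log2 of (CPM + 1) ratios, which understates the difference of low genes. Called means 2-fold or more; the filter was 5 CPM in 1 or more groups (15004 genes). Intervals are exact Poisson at 95%. Where a group had no count, the limit was 3 counts over the group. Levels per kb use exonic length. Shown by cell were the member with the highest mean level per kb in each complex, up to 3 members with the largest difference in each direction of each comparison, those 2-fold or more apart in all regions or in both sets of title numbers, and the isoforms. The number of 3 was set with the values known. The members and lists were chosen with earlier results of these data known. The steps were tested on simulated counts: the true ratios were recovered where cells varied little, and with the real spread between cells many unchanged genes also passed 2-fold, so a count past 2-fold is read beside the share of all genes. For the equal-depth setting each cell was thinned to 582635 counts, which left 125 cells. The correlations used the values of these 125 cells before thinning. Alternatives tried were other scalings, equal weight per cell, the median of cells, equal depth, no deepest cell, each set of title numbers, 5 CPM added, no filter, and, chosen after seeing the data, no cells with 1000 CPM or more of blood and mesenchyme markers. 0 columns of values stayed unused.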

Additional observations from a re-analysis of the deposited data

Results flagged for a closer look

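In the 8 basal OHCs, the only group of 4 to 10 cells, the highest cell stood far from the next in 14 of 24 levels examined by the gap between them divided by the range of the group, a measure that marks about 1 in 20 groups by chance when values are normally distributed. Levels of single cells with many zeros are not, and most of these 24 were sums that overlap or members named for a large difference, so the count is a description. The highest cell had 23039 CPM over all 49 genes, against 10698 CPM in the next, 12597 CPM over complex IV, against 5894 CPM, and 2934 CPM over complex III, against 1445 CPM. For Cox6b1 it had 12234 CPM, against 5121 CPM in the next cell. Atp5j2 reached 2224 CPM against 144 CPM, Uqcr10 1758 CPM against 1.44 CPM, Cox6a2 766 CPM against 167 CPM, and Cox7a2l 377 CPM against 10.6 CPM. Sdhb reached 190 CPM against 0.48 CPM, Cox5b 113.1 CPM against 20.6 CPM, and Cox7c 67.7 CPM against 30.96 CPM. Sdha (2.58 CPM), Uqcrb (0.56 CPM) and Uqcrc2 (0.16 CPM) were marked at levels of a few reads.

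For 5 genes the pooled log2 ratio of base over apex was 2-fold or more in opposite directions in OHCs and in IHCs, and the difference was not tested. These are 11.4% of the 44 genes, beside 14.9% of all genes. Sdha had -6.34 in OHCs and 2.96 in IHCs, a difference of -9.30. Cox7a2l had 3.73 in OHCs and -2.41 in IHCs, a difference of 6.14. Uqcr10 had 3.03 in OHCs and -1.05 in IHCs, a difference of 4.08, and Atp5e 1.26 and -2.74, a difference of 4.01. Atp5h had -1.08 in OHCs and 1.20 in IHCs, a difference of -2.28. Of the 5, Cox7a2l alone kept 2-fold opposite ratios in both sets of title numbers, beside 0.626% of all genes. Its highest basal OHC, a higher-numbered cell, had 377 CPM against 10.6 CPM in the next. At lower numbers Sdha had -0.23 in OHCs and -0.64 in IHCs, Atp5e 0.61 and 0.42, and Uqcr10 8.19 and 3.96, and at higher numbers Uqcr10 had -5.97 and -2.53. Atp5h in OHCs was at -0.16 at lower and 0.27 at higher numbers. A few cells held most of the counts of these genes in basal OHCs, as given above for Uqcr10.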

How the results depend on the processing

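Depth and the spread between cells limit these results: intervals of pooled levels cover counting error, each group is 1 sample, and basal OHCs number 8. No paired analysis was possible because each group counts as 1 sample and the title numbers do not pair cells across groups. The direction and size of the members' medians depended on the setting, and the cause was not tested. Outside the settings by title number, shares of all genes past 2-fold are not given, so the counts of members describe the setting only. Against the medians of 0.12, 0.32 and -0.08 (OHC to IHC in apex, middle, base), 0.00 and -0.59 (base to apex in IHCs and OHCs) and the counts in the report, the values that moved were these. With total counts without TMM, the median log2 ratio was -0.10 (base to apex IHCs), -1.04 (base to apex OHCs). With RLE size factors, the median log2 ratio was 0.46 (OHC to IHC apex), 0.64 (OHC to IHC base), 0.081 (base to apex IHCs), 0.073 (base to apex OHCs) and the count of members was 17 higher (OHC to IHC apex), 21 higher (OHC to IHC base). With equal weight per cell, the median log2 ratio was 0.21 (OHC to IHC apex), -0.15 (OHC to IHC middle), 0.21 (base to apex IHCs), 0.31 (base to apex OHCs) and the count of members was 11 lower (OHC to IHC middle). With the median of the cells, the median log2 ratio was 0.00 (OHC to IHC apex), -0.18 (OHC to IHC middle), 0.20 (base to apex IHCs), 0.22 (base to apex OHCs) and the count of members was 7 higher (OHC to IHC apex), 1 higher (OHC to IHC middle), 13 lower (OHC to IHC middle), 3 lower (OHC to IHC base), 6 lower (base to apex IHCs), 3 lower (base to apex OHCs). With equal depth, the median log2 ratio was 0.27 (OHC to IHC apex), -0.23 (base to apex OHCs) and the count of members was 4 lower (OHC to IHC middle). With the deepest cell of each group left out, the median log2 ratio was 0.047 (OHC to IHC apex), -0.41 (base to apex IHCs). With lower title numbers only, the median log2 ratio was -0.11 (OHC to IHC apex), -0.35 (OHC to IHC middle), 0.57 (base to apex IHCs), 0.30 (base to apex OHCs) and the count of members was 12 lower (OHC to IHC apex), 17 lower (OHC to IHC middle), 19 higher (base to apex IHCs), 7 lower (base to apex IHCs), 11 lower (base to apex OHCs). With higher title numbers only, the median log2 ratio was 0.045 (OHC to IHC apex), -0.62 (base to apex IHCs), -0.67 (base to apex OHCs) and the count of members was 6 higher (base to apex IHCs). With 5 CPM added, the median log2 ratio was -0.52 (base to apex OHCs) and the count of members was 3 higher (OHC to IHC middle), 1 lower (OHC to IHC middle). With no filter, the median log2 ratio was 0.00 (OHC to IHC apex), -0.52 (base to apex OHCs). With no cells of high blood and mesenchyme markers (added after seeing the data), the median log2 ratio was -0.085 (OHC to IHC apex), -3.63 (OHC to IHC middle), -0.17 (base to apex IHCs) and the count of members was 14 lower (OHC to IHC apex), 2 higher (OHC to IHC middle), 38 lower (OHC to IHC middle). With high-marker cells left out, no basal OHC remained, so the comparisons with them gave no value, and middle OHCs kept 3 cells. With groups at 0 set to their limit, the medians were 0.23 (OHC to IHC apex) and -0.64 (base to apex OHCs).

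Of 48 named differences, 23 changed sign in at least 1 setting. With the median of the cells, named members changed sign as follows: Atp5o -0.10 (OHC to IHC middle), Atp5mpl 0.19 (base to apex IHCs), Atp5e 0.26 (base to apex IHCs), Cox8a 0.22 (base to apex OHCs), Atp5j2 -1.02 (OHC to IHC middle), Cox5b 0.84 (base to apex OHCs), Atp5g2 0.60 (base to apex OHCs), Atp5o 1.99 (base to apex OHCs), Sdhb -0.16 (OHC to IHC apex). With lower title numbers only, named members changed sign as follows: Sdhd 0.21 (OHC to IHC apex), Sdha -0.053 (OHC to IHC apex), Cox5a 0.64 (OHC to IHC middle), Cox6b2 -0.041 (OHC to IHC middle), Atp5mpl -0.17 (OHC to IHC middle), Sdha 0.36 (OHC to IHC base), Atp5e 0.42 (base to apex IHCs), Sdha -0.64 (base to apex IHCs), Atp5j2 -0.30 (OHC to IHC apex), Atp5j2 -1.30 (OHC to IHC middle). With higher title numbers only, named members changed sign as follows: Uqcr10 -3.35 (OHC to IHC base), Cox6b2 1.58 (base to apex IHCs), Cox6b1 -0.63 (base to apex IHCs), Atp5j2 -0.91 (base to apex OHCs), Cox6b1 -0.043 (base to apex OHCs), Uqcrq -0.84 (base to apex IHCs). With no cells of high blood and mesenchyme markers, named members changed sign as follows: Atp5mpl -2.69 (OHC to IHC middle), Cox6b2 1.66 (base to apex IHCs), Atp5j2 -3.82 (OHC to IHC middle), Sdhb -2.65 (OHC to IHC apex). Cox6b1 kept its direction in base to apex except at higher title numbers.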
